A study of Saccharomyces cerevisiae with 12 samples.

Results

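Ty1 and Ty2 are the most numerous families of retrotransposons in budding yeast, and 60 of their genes, listed by systematic name, are described here in strains that lacked the co-repressor subunits Tup1p and Cyc8p. The list was made with earlier results of these data known and from changes between the mutants and wt, so the change of a listed gene against wt is given as a description. No p-value is printed for it, and the counts of listed genes past the limits of the study are no evidence. Differences between mutants were tested over all genes, but they use the same mutant libraries on which the genes were chosen, so their p-values are not independent of that choice. Of the 60 genes, 58 were among the 6400 named genes of the count tables, and *YDR210C-C* and *YDR210C-D* were not analysed here. The listed genes belong to 30 annotated elements, 26 of Ty1 and 4 of Ty2, apart from *YLR035C-A*, which lies in no annotated element.

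RNA was sequenced after ribosomal RNA depletion from 4 strains of the BY4741 background (*MATa his3Δ1 leu2Δ0 met15Δ0 ura3Δ0*), each in 3 biological replicates grown in YPD with 2% glucose to an OD600 of 0.6 to 0.8. The strains were wt, *tup1* (*tup1Δ::KanMX4*), *cyc8* (*cyc8Δ::KanMX4*) and the double mutant *tup1 cyc8* (*tup1Δ::KanMX4 cyc8Δ::URA3*). Each genotype was 1 strain, the single mutants from a deletion library and the double mutant made in the study's laboratory, so a difference in Ty copies between strains and an effect of the deletion cannot be told apart. All 3 mutants were compared with the same 3 wt libraries.

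Tup1p and Cyc8p form a complex that is recruited to promoters by DNA-bound repressors. A Ty1 or Ty2 element is transcribed from one long terminal repeat (LTR) to the other into an RNA that serves both as messenger and as genome. Its *TYA* frame encodes Gag, the protein of the virus-like particle, and *TYB*, read through a ribosomal frameshift, encodes Pol with its protease, integrase and reverse transcriptase. Integration is directed to the neighbourhood of genes read by RNA polymerase III, chiefly tRNA genes. In haploid cells Ty1 transcription is known to depend on Ste12 and Tec1, activators of mating and filamentous growth, and on chromatin complexes such as SAGA and Swi/Snf.

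The libraries held between 12643361 and 17898833 counts on named genes, and levels are given as CPM, the counts of a gene relative to the TMM-scaled size of its library, a scaling that adjusts for a few highly expressed genes. *TUP1* stood at 16.9 to 20.8 CPM in *tup1* and 19.5 to 21.5 in *tup1 cyc8*, against 455 to 480 in wt. *CYC8* stood at 7.31 to 9.33 CPM in *cyc8* and 181 to 198 in wt, but at 79.3 to 88.3 CPM in the strain labelled *tup1 cyc8*, so its *CYC8* row was only partly reduced. *URA3*, the marker of that deletion, had 39.2 to 48.2 CPM in *tup1 cyc8* and at most 0.16 elsewhere. The a-cell pheromone receptor gene *STE2* was present in every library (159 to 595 CPM), and the alpha-cell gene *STE3* was at 0.39 to 3.15 CPM. *cyc8* replicate 1 stood apart from the other *cyc8* libraries, with a root mean square log2 difference of 0.46 to each of them over 5995 genes, against 0.17 between these. By the same measure wt replicate 3 stood 0.35 and 0.38 from wt replicates 1 and 2, which were 0.17 apart.

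The sequence just upstream shows that the elements carry more than 1 form of LTR, and 8 stretches that stand for these forms are printed for the copies described most below. Each covers the 100 bases from 160 to 61 bases before the first start codon of the element, from the RefSeq R64 sequence of S288C. Capitals mark TATAAA, the letters known to bind Ste12 (TGAAACA) or Tec1 (CATTCC, here as its reverse complement GGAATG), and a run of 19 letters, GATGATAATAATATTTATA, which all 4 Ty2 elements with counts carried.
*YMR045C* (chrXIII:362688-362787, minus strand): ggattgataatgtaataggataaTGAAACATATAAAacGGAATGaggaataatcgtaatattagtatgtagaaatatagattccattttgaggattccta
*YBL005W-B* (chrII:221170-221269, plus strand): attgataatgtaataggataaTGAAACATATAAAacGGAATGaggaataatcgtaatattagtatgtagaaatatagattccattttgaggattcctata
*YGR027W-B* (chrVII:535897-535996, plus strand): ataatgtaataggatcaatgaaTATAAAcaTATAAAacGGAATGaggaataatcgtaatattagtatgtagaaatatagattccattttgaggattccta
*YPR158C-D* (chrXVI:856318-856417, minus strand): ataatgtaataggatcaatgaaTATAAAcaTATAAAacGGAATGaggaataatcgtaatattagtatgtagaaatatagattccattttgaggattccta
*YLR227W-B* (chrXII:593278-593377, plus strand): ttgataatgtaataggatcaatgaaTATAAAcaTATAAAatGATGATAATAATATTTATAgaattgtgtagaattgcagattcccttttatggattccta
*YNL054W-B* (chrXIV:519296-519395, plus strand): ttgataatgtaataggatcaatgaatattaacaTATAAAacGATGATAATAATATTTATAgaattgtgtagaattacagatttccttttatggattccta
*YDR210W-B* (chrIV:871952-872051, plus strand): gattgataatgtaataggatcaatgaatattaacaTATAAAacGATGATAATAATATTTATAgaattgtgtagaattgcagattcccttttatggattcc
*YDR261W-B* (chrIV:981302-981401, plus strand): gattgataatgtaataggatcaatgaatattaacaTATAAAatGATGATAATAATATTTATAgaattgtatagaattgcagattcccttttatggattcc

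In *YMR045C* and *YBL005W-B* the Ste12 letters ran directly into the TATA letters. *YGR027W-B* and *YPR158C-D* were identical over this stretch, without the Ste12 letters, and *YLR227W-B* and *YNL054W-B*, annotated as Ty1, carried the 19-letter run of the Ty2 elements. Over 300-base windows (250 bases before to 50 after the start, both strands), TGAAACA was found in 7 of 26 listed Ty1 elements and 0 of 4 Ty2 elements, against 7.50% of 6001 windows of all protein-coding genes. In these 7 it was part of TGAAACATATAAA, which 0.317% of all windows held. CATTCC was found in 17 of 26 Ty1 and 1 of 4 Ty2 elements and in 10.9% of all windows. TATAAA was in all 30 elements and 45.2% of windows, and the Gcn4 letters TGACTC in none of the 30 and 7.98%. These counts cover the windows only. Over the whole length of the elements, TGAAACA occurred in every listed Ty1 and Ty2 element and TGACTC in every listed Ty1 element. The Ty2-type run lay in 9 of 26 Ty1 and 4 of 4 Ty2 elements and in 0.700% of all windows. This run was read from the window of *YDR210W-B* itself, so its presence in the similar Ty2 windows is no finding. The windows of all protein-coding genes include those of the Ty genes, with *TYA* and *TYB* counted separately, so the listed copies are part of these shares.

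The elements also shared their place in the genome. Of the 30 elements, 25 (83.3%) lay within 1000 bp of a tRNA gene, against 6.28% of 5912 other protein-coding genes, and the median distance was 184.5 bp.

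The copies are so alike that the way reads were counted bears on every value. The authors counted reads that hit a single gene, and the 27 listed genes lying wholly inside another annotated gene, as *TYA* does inside *TYB*, had 0 counts in all 12 libraries. Reads on bases shared with another gene were not counted for either gene, so these zeros set no upper limit on the RNA of these genes. The remaining 31 genes had counts, and all of them passed the filter on low counts. They comprise 26 Ty1 genes, 4 Ty2 genes and *YLR035C-A*, which shared 97.3% of its 31-base words with annotated Ty1 elements. *YAR010C* was the only listed *TYA* gene with counts, and it does not overlap its *TYB* partner *YAR009C* in the annotation.

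Sequence that places a read in 1 copy was scarce. At most 7.92% of the 31-base words of a gene with counts were unique in the genome (*YNL284C-B*), and 10 of the 31 genes had no unique 100-base word outside bases shared with another gene. One of these, *YGR027W-B*, still had 3185 to 3714 counts in wt. Over the 31 genes, which share their libraries, the number of unique 100-base words and the wt level had a rank correlation of 0.51. Values of single copies are therefore uncertain, and sums over copies are given first.

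Summed over the listed genes, Ty RNA was lower in all 3 mutants, and lowest in *cyc8*. The sum was 2484, 2633 and 2503 CPM in the wt libraries, or 0.297% to 0.304% of their counts. It was 716, 818 and 765 CPM in *tup1*, 236, 237 and 245 CPM in *cyc8*, and 733, 782 and 790 CPM in *tup1 cyc8*. The wt libraries did not overlap with those of any mutant, and *tup1* and *tup1 cyc8* overlapped each other. As means, wt stood at 2540 ± 81.0 CPM, *tup1* at 766 ± 51.2 (30.2% of wt), *cyc8* at 239 ± 4.85 (9.42%) and *tup1 cyc8* at 768 ± 31.2 (30.3%; SD, n = 3). Without *cyc8* replicate 1 the *cyc8* mean was 241 CPM. In bulk RNA, fewer cells with Ty RNA and less Ty RNA per cell cannot be told apart. Of the 3 a-cell marker genes, 2 were also lowest in *cyc8*. The mean of *STE2* was 499.7 CPM for wt, 554 for *tup1*, 164 for *cyc8* and 338 for the double mutant, and that of *MFA1*, an a-factor gene, was 111, 75.1, 27.1 and 45.9. The other a-factor gene, *MFA2*, stood at 431, 711, 447 and 689 CPM. Against wt, *STE2* fell by 1.61 on the log2 scale in *cyc8* (adjusted p = 3.6e-05) and *MFA1* by 2.04 (adjusted p = 0.00095), and their part in the Ty values was not tested.

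Most of this sum was Ty1, and the Ty2 genes, in the list and outside it, are given beside it. The Ty1 genes summed to 2437 ± 80.4 CPM in the wt libraries, 716 ± 48.4 in those of *tup1*, 198 ± 3.25 in those of *cyc8* and 674 ± 18.6 in the double mutant, so *cyc8* was 12.3-fold below wt and 3.61-fold below *tup1*. The Ty2 genes summed to 80.04, 82.4 and 85.4 CPM in the wt libraries, 45.3, 48.5 and 44.0 in those of *tup1*, 38.5, 37.6 and 40.6 in those of *cyc8* and 73.2, 86.7 and 105 in the double mutant. For these Ty2 genes the single mutants thus lay below every wt library at 55.6% and 47.1% of the wt mean, while the double mutant overlapped wt at 107%. The 4 other Ty2 genes with counts had a larger sum of 181 ± 29.7 CPM in wt. It stood at 74.3 ± 5.95 in *tup1* (41.1% of wt), 26.6 ± 5.97 in *cyc8* (14.7%) and 106.5 ± 15.4 in the double mutant (58.9%). This sum was thus lowest in *cyc8*, and every double mutant library lay below wt. Most of it was *YOR192C-B* (131.5 CPM in wt), which like *YLR410W-B* was lowest in *cyc8*. *YGR161W-B* and *YFL002W-A* were lowest in *tup1*, at 1.59 and 0.43 CPM against 2.69 and 0.55 in *cyc8*.

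**Figure D1:**
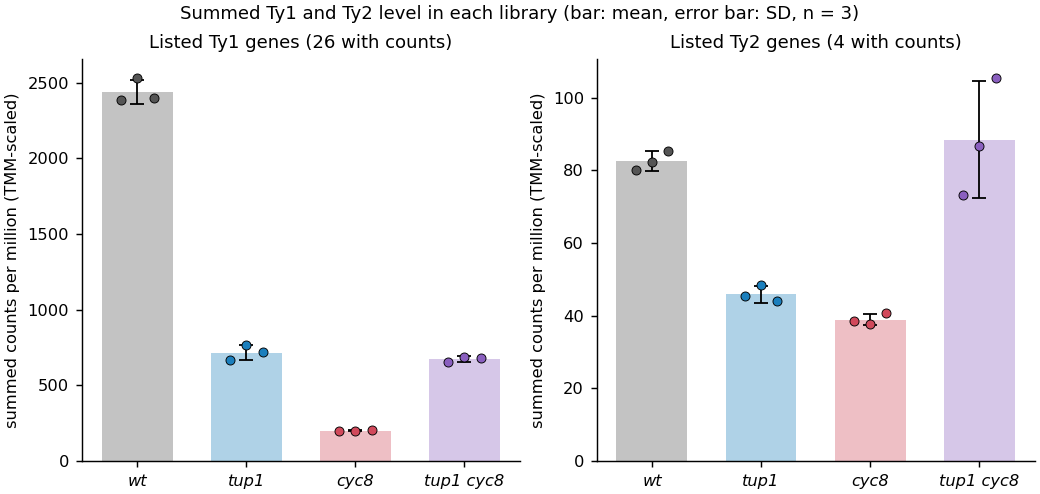
Summed level (y axis, CPM after TMM scaling) of the listed Ty1 genes (left) and Ty2 genes (right) in the 4 strains; bars are means, error bars SD and points the 3 libraries of each strain. The Ty1 mean stood at 2437 CPM in wt and 198 in *cyc8*, with *tup1* (716) and the double mutant (674) between them, whereas the Ty2 sum of *tup1 cyc8* (88.4) overlapped that of wt (82.6).

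Gene by gene, wt was again mostly highest and *cyc8* mostly lowest, as the choice of the genes favours. The order of *tup1* and *tup1 cyc8* varied, with differences between them from -3.21 to 2.41 on the log2 scale. In 28 of the 31 genes wt had the highest mean, and in 28 *cyc8* had the lowest. The median log2 changes against wt were -1.77, -2.98 and -1.34 for *tup1*, *cyc8* and *tup1 cyc8*, where those of all genes tested were -0.03, -0.03 and -0.03. By the limits of the study (2-fold and an adjusted p of at most 0.01, edgeR's quasi-likelihood test), 27 listed genes were lower in *tup1* (1.43% of all tested genes were), 29 in *cyc8* (1.91%) and 22 in the double mutant (1.88%). In the other direction, 1 listed gene was higher in *tup1* (7.27% of all genes), 0 in *cyc8* (12.5%) and 1 in the double mutant (13.9%), the same gene, *YDR210W-B*. Nothing is read from these counts, since the genes were chosen on these contrasts.

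**Figure D2:**
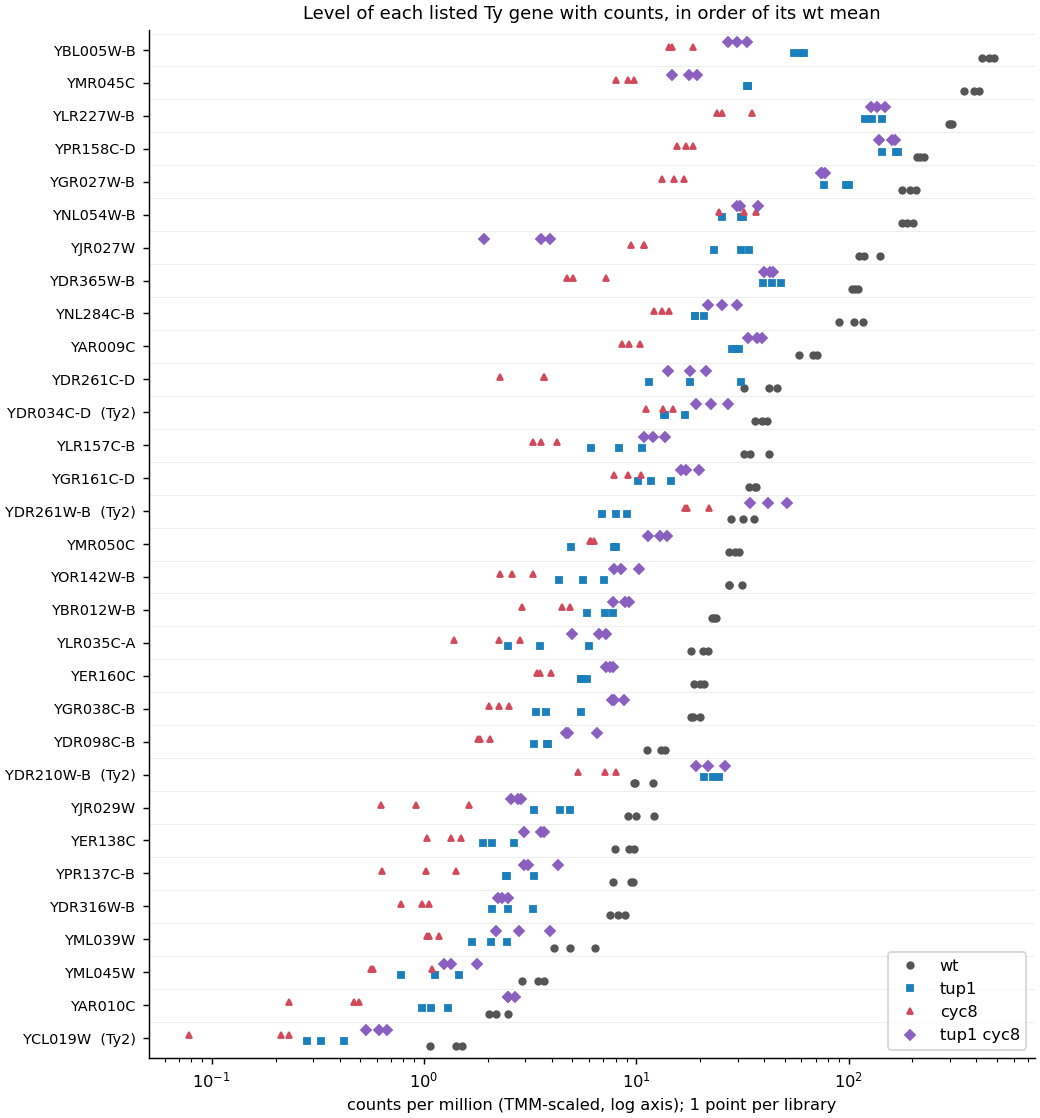
Level of each of the 31 listed genes with counts (rows, in order of the wt mean) in every library (x axis, CPM after TMM scaling on a log axis; symbols and colours mark the strain). In 28 of 31 rows wt has the highest mean, and *YJR027W* is the only row in which *tup1 cyc8* is lowest.

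The 6 listed genes that were highest in wt, all *TYB* genes of Ty1, made up 68.7% of the wt sum. Their *TYA* partners had no counts, and their levels per kilobase of sequence outside *TYA* ranged up to 116 CPM (*YBL005W-B*), with 97.2 for *YMR045C*, 76.7 for *YLR227W-B* and 55.1 for *YPR158C-D*.

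*YMR045C* (chromosome XIII, 357359 to 362627) and *YBL005W-B* (chromosome II, 221330 to 226598), the genes behind the TGAAACATATAAA stretches printed above, had the largest decreases in *tup1* and in *cyc8*. *YMR045C* gave 390, 412 and 349 CPM in the wt libraries, 33.3, 33.7 and 33.5 in those of *tup1*, 9.10, 9.71 and 7.99 in those of *cyc8* and 17.7, 19.4 and 14.7 in the double mutant. None of the 4 strains overlapped. The log2 changes against wt were -3.54 (SE 0.11), -5.42 (SE 0.15) and -4.46 (SE 0.14), the second a 42.9-fold decrease. *YBL005W-B* gave 461, 486 and 426 CPM in the wt libraries, 55.3, 61.8 and 59.8 in those of *tup1*, 14.2, 14.7 and 18.5 in those of *cyc8* and 27.2, 33.1 and 30.0 in the double mutant. Here too the strains were fully separate, with log2 changes of -2.98 (SE 0.11), -4.85 (SE 0.16) and -3.91 (SE 0.12). In both genes *tup1 cyc8* lay between the single mutants. It differed from *tup1* by -0.95 and -0.97 on the log2 scale (edgeR over 12 libraries, adjusted p = 0.00019 and 0.00018) and from *cyc8* by 0.96 and 0.93 (adjusted p = 0.00044 and 0.00051).

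*YPR158C-D* (chromosome XVI, 850989 to 856257) differed from wt mainly in *cyc8*. It gave 211, 226 and 216 CPM in the wt libraries, 144, 167 and 170 in those of *tup1*, 17.2, 15.6 and 18.6 in those of *cyc8* and 140, 166 and 161 in the double mutant. The *tup1* and double mutant libraries overlapped each other and lay just under wt, while *cyc8* lay far below. The log2 changes were -0.46, -3.67 and -0.47, and the difference of *cyc8* from *tup1* was -3.23 (SE 0.12, adjusted p = 3.5e-09), the largest between those mutants among the listed genes. *tup1 cyc8* exceeded *cyc8* by 3.18 on the log2 scale (SE 0.12, adjusted p = 6.1e-09).

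*YDR365W-B* (chromosome IV, 1206997 to 1212265) had the same shape with a larger part in *tup1*. It gave 107, 104 and 111 CPM in the wt libraries, 43.4, 47.8 and 39.5 in those of *tup1*, 7.20, 5.01 and 4.74 in those of *cyc8* and 43.8, 42.8 and 40.0 in the double mutant. The *tup1* and *tup1 cyc8* libraries overlapped, and the log2 changes against wt were -1.32, -4.24 and -1.34. The difference of *cyc8* from *tup1* was -2.93 on the log2 scale (SE 0.15, adjusted p = 6.8e-08).

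*YLR227W-B* (chromosome XII, 593438 to 598706), whose stretch is of the Ty2 type, and *YGR027W-B* (chromosome VII, 536057 to 541325), whose stretch is of the Ty1 type, also followed this order. *YLR227W-B* gave 298, 301 and 308 CPM in the wt libraries, 129, 144 and 120 in those of *tup1*, 35.1, 25.2 and 24.1 in those of *cyc8* and 136, 127 and 149 in the double mutant. *YGR027W-B* gave 179, 208 and 195 CPM in the wt libraries, 76.8, 100.6 and 97.0 in those of *tup1*, 13.2, 15.04 and 16.8 in those of *cyc8* and 77.2, 73.9 and 75.3 in the double mutant. In both, *tup1* and *tup1 cyc8* overlapped below wt, and *cyc8* was separate and lowest. The differences of *cyc8* from *tup1* were -2.21 (adjusted p = 7.9e-07) and -2.61 (adjusted p = 6.8e-08) on the log2 scale.

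*YNL054W-B* (chromosome XIV, 519456 to 524706) went against this order. It gave 179, 188 and 201 CPM in the wt libraries, 31.7, 31.04 and 25.3 in those of *tup1*, 24.5, 36.7 and 32.2 in those of *cyc8* and 30.9, 37.4 and 29.7 in the double mutant. The 3 mutants overlapped one another, all well below wt, with log2 changes of -2.70, -2.60 and -2.52. The difference between *cyc8* and *tup1* was 0.08 on the log2 scale (SE 0.15, adjusted p = 0.71). With 795 unique 100-base words outside *TYA*, this gene had the most of the list.

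*YJR027W* (chromosome X, 472760 to 478028) was lowest in the double mutant. It gave 112, 119 and 141 CPM in the wt libraries, 23.2, 31.3 and 34.1 in those of *tup1*, 10.8, 9.48 and 10.8 in those of *cyc8* and 3.93, 3.55 and 1.91 in the double mutant. The strains did not overlap, and the double mutant values rest on 51, 53 and 20 counts. *tup1 cyc8* differed from *tup1* by -3.21 on the log2 scale (SE 0.22, adjusted p = 1e-06) and from *cyc8* by -1.70 (SE 0.22, adjusted p = 0.00036). It was the only listed gene below *cyc8* by that test. Whether this strain carries this copy was not tested.

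The listed Ty2 genes did not move as a group. *YDR210W-B* (chromosome IV, 872112 to 877425) gave 9.88, 9.78 and 11.95 CPM in the wt libraries, 24.7, 23.1 and 20.9 in those of *tup1*, 8.06, 5.32 and 7.14 in those of *cyc8* and 19.1, 21.9 and 26.1 in the double mutant. All *tup1* and *tup1 cyc8* libraries lay above wt and all *cyc8* libraries below, with log2 changes of 1.10, 1.09 and -0.61. The difference of *cyc8* from *tup1* was -1.73 on the log2 scale (SE 0.17, adjusted p = 1.8e-05). Scaled by library size alone, the changes in *tup1* and *tup1 cyc8* were 0.98 and 0.62, and without *tup1 cyc8* replicate 3 the latter was 0.98, all under the 2-fold limit.

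*YDR261W-B* (chromosome IV, 981462 to 986775) was lowest in *tup1*. It gave 27.8, 31.9 and 35.8 CPM in the wt libraries, 6.86, 8 and 9.06 in those of *tup1*, 16.9, 17.3 and 22.1 in those of *cyc8* and 34.4, 41.8 and 51.6 in the double mutant. Both single mutants lay below wt, and the double mutant overlapped wt at its lower end. *cyc8* was above *tup1* by 1.23 on the log2 scale (SE 0.18, adjusted p = 0.00041), and *tup1 cyc8* was above *tup1* by 2.41 (SE 0.18, adjusted p = 1.7e-06). The 300-base windows of *YDR210W-B* and *YDR261W-B* were 98.3% identical.

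*YDR034C-D* (chromosome IV, 514043 to 519356), a further Ty2 copy, gave 41.3, 39.2 and 36.3 CPM in the wt libraries, 13.5, 16.96 and 13.7 in those of *tup1*, 13.3, 14.9 and 11.2 in those of *cyc8* and 19.03, 22.6 and 27.1 in the double mutant. The single mutants overlapped each other, with a difference of -0.17 on the log2 scale (SE 0.15, adjusted p = 0.42), and the double mutant lay between them and wt. The fourth Ty2 gene, *YCL019W*, was near the lower end of detection with 1.07 to 1.51 CPM in wt and 0.08 to 0.23 in *cyc8*.

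*YAR010C* (chromosome I, 164544 to 165866), the *TYA* gene with counts, gave 2.02, 2.18 and 2.499 CPM in the wt libraries, 0.98, 1.08 and 1.30 in those of *tup1*, 0.23, 0.47 and 0.49 in those of *cyc8* and 2.70, 2.48 and 2.48 in the double mutant. The double mutant overlapped wt, and *cyc8* was lowest. Its *TYB* partner *YAR009C* gave 58.5 to 71.1 CPM in the wt libraries, 28.4 to 30.5 in those of *tup1*, 8.58 to 10.4 in those of *cyc8* and 33.5 to 39.2 in the double mutant, where the double mutant stayed below wt. *YAR010C* has no unique 100-base word, so its counts cannot be assigned to this copy with certainty.

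The other 19 of the 31 genes, *YCL019W* and *YAR009C* included, had wt means from 1.33 CPM (*YCL019W*) to 104 (*YNL284C-B*), and in each of them every mutant had a lower mean than wt. The rank correlation of wt mean and log2 change over the 31 genes, which share the wt libraries and much sequence, was -0.17, -0.54 and -0.27 in the same order of mutants.

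Grouping the copies by the form of their upstream stretch, a feature that played no part in their choice, gave overlapping ranges. The 7 Ty1 genes with the Ste12 letters had median log2 changes of -2.36, -2.98 and -1.68 in the order *tup1*, *cyc8*, *tup1 cyc8*. For the 9 Ty1 genes with the Ty1-type stretch but without these letters the medians were -1.84, -3.10 and -1.38, and for the 8 Ty1 genes with the Ty2-type stretch -1.52, -3.22 and -1.28. The 4 Ty2 genes had -1.68, -1.16 and -0.16, although all their stretches were of the Ty2 type. *YAR009C*, which starts inside its element, its partner *YAR010C*, and *YLR035C-A*, which lies in no element, were left out.

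The difference between *cyc8* and *tup1* ran from -1.91 to -0.40 with a median of -0.76 on the log2 scale in the first form and from -3.23 to -0.16 with a median of -1.18 in the second. In the third, the Ty1 genes with the Ty2-type stretch, it ran from -2.93 to 0.08 with a median of -1.71. No test was made between forms, since copies share sequence and reads.

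**Figure D3:**
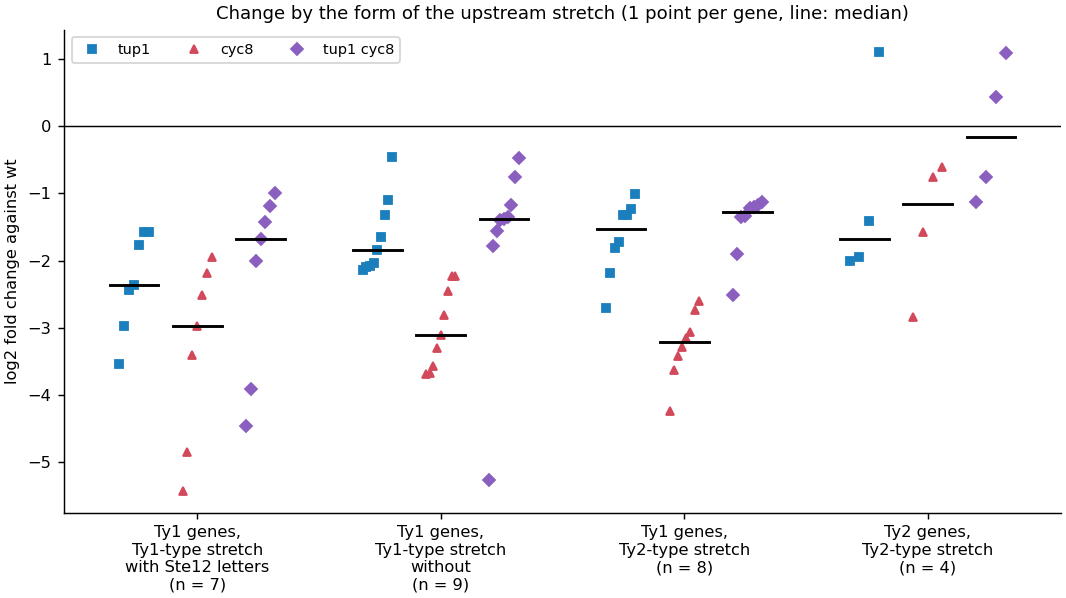
Log2 fold change against wt (y axis) of listed genes grouped by family and by the form of the stretch upstream of the element (x axis, with the number of genes), for *tup1*, *cyc8* and *tup1 cyc8*; points are genes and lines medians. The forms overlap in every mutant, and the *cyc8* medians of the Ty1 groups lie between -3.22 and -2.98 against -1.16 for Ty2.

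The comparison between mutants asks whether the Ty genes differed between the strains without *TUP1*, *CYC8* or both. It draws on the libraries that chose the genes, so the counts of calls are a description and are no independent evidence. It was fitted over all 12 libraries, with an adjusted p of at most 0.01 over 5995 genes as the limit. *cyc8* was lower than *tup1* in 20 of the 31 genes (5% of all genes tested) and higher in 1 (9.77% of all genes), *YDR261W-B*. The median difference was -1.06 on the log2 scale over the listed genes and -0.01 over all genes. The 20 comprised 19 Ty1 genes and *YDR210W-B*. In 24 of the 31 genes every *cyc8* library lay below every *tup1* library, as in 19.4% of all genes. The count was 13 without *tup1* replicate 2 (128 of all 6010 genes tested) and 13 without *cyc8* replicate 2 (107 of 6014). It was 19 without *cyc8* replicate 1 (826 of 6015) and 12 in a fit of the 6 libraries alone (127 of 5946). With every library, 300 of all 5995 genes were lower.

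The strain labelled *tup1 cyc8* had more Ty RNA than *cyc8*, and the same limit applies, since genes chosen for a low value in *cyc8* are favoured to stand higher elsewhere. It was higher in 26 of the 31 genes (3.09% of all genes tested), 22 of them Ty1 and 3 Ty2, and lower in *YJR027W* alone (0.801% of all genes). The median difference was 1.46 on the log2 scale, where that of all genes was 0.00. Every library of *tup1 cyc8* lay above every *cyc8* library in 29 genes (15.1% of all genes). Of the 20 genes that were lower in *cyc8* than in *tup1*, 18 were also called higher in the double mutant against *cyc8*. Both contrasts use the same *cyc8* libraries in 1 fit, which favours such an overlap, so it is no second result. In a fit of the 6 libraries with the replicate as a block, 9 genes were called higher and 0 lower (60 and 2 of all 5951 genes tested). The call of *YJR027W* was lost there. Without *cyc8* replicate 1 the count of higher genes was 24 (397 of all 6015 genes tested) and the median difference 1.31. In the same comparison the *CYC8* row itself was higher by 3.31 on the log2 scale, and its part in the result was not tested.

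*tup1 cyc8* and *tup1* differed in fewer Ty genes. *YBL005W-B*, *YMR045C* and *YJR027W* were lower in the double mutant (4.62% of all genes were), and *YDR261W-B*, *YMR050C*, *YGR038C-B*, *YAR010C* and *YDR034C-D* were higher (9.26%). In the other 23 the differences lay between -0.61 and 0.79 on the log2 scale and did not pass the test, which does not show that they were equal. Same-numbered libraries deviated together in this comparison, although the labels give only replicate numbers and name no pairing. With the replicate as a block in a fit of the 6 libraries, 3 genes were lower and 3 higher (523 and 767 of all 5930 genes tested). The number of higher genes fell to 3 without *tup1* replicate 2, *tup1* replicate 3, *tup1 cyc8* replicate 2 or *tup1 cyc8* replicate 3. It fell to 2 without *tup1 cyc8* replicate 1, and in these fits 321 to 410 of all genes were higher, against 555 with every library. The calls of *YAR010C* (1.17, adjusted p = 0.0042) and *YDR034C-D* (0.63, adjusted p = 0.0086) were among those lost.

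**Figure D4:**
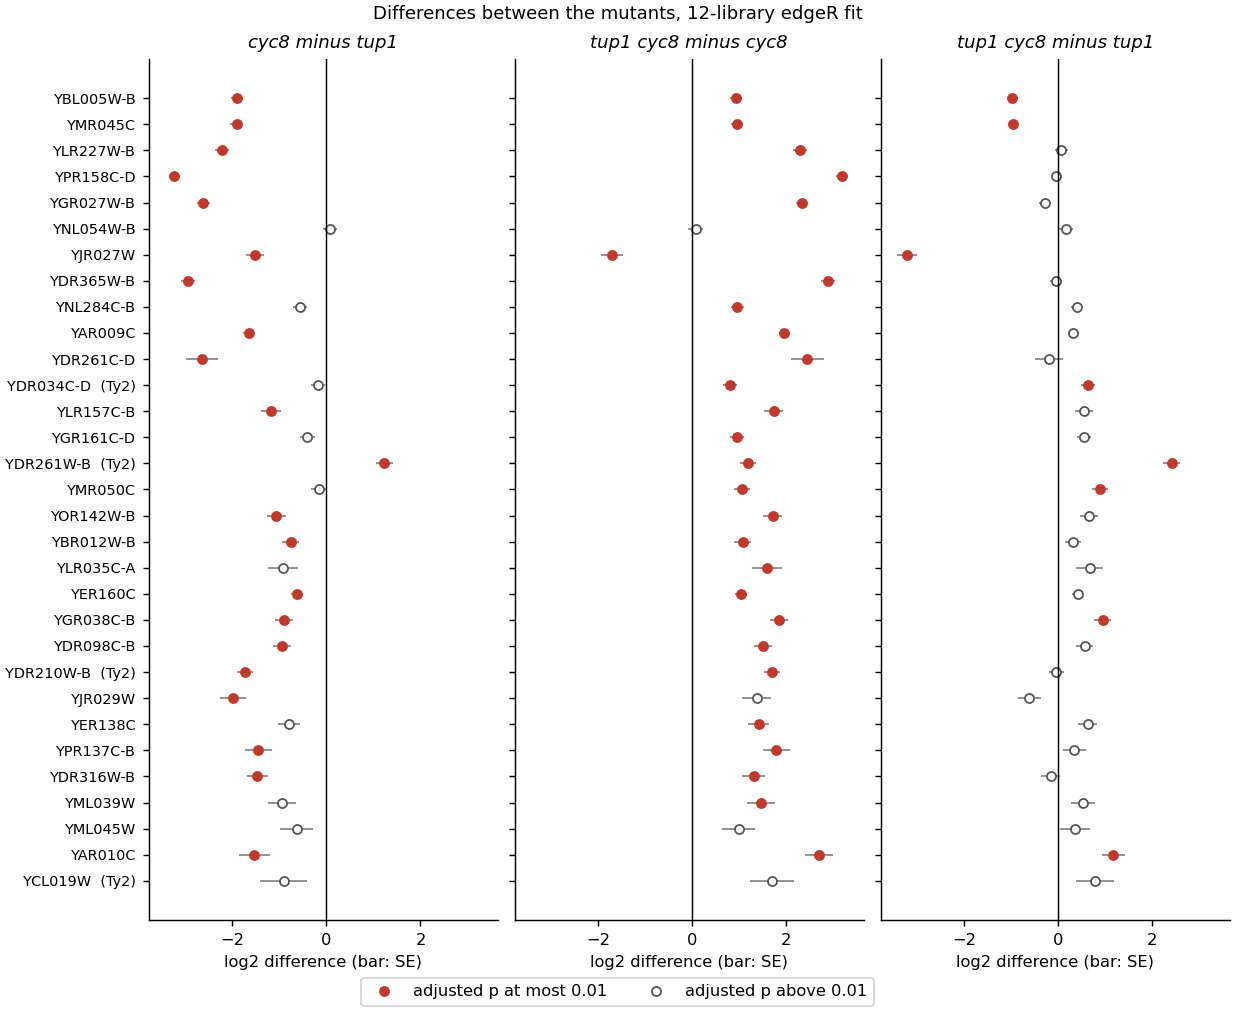
Log2 differences between mutants (x axis, bars are standard errors) for the 31 listed genes with counts (rows, in order of the wt mean); filled points passed an adjusted p of 0.01 in the edgeR fit of 12 libraries. Between *cyc8* and *tup1*, 20 genes lie to the left and pass, between *tup1 cyc8* and *cyc8* 26 lie to the right and pass, and between *tup1 cyc8* and *tup1* the 23 open points lie between -0.61 and 0.79.

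Ty genes outside the list were tested against wt, with the limit that their place outside it was set with results known. Of 26 such genes with a count row, 15 had counts. By both limits, 7 were lower than wt in *tup1* (1.43% of all genes tested were), 8 in *cyc8* (1.91%) and 4 in the double mutant (1.88%), all of Ty1 or Ty2. Summed, the other Ty1 genes gave 554 ± 6.06 CPM in the wt libraries, 210 ± 9.95 in those of *tup1*, 49.6 ± 2.58 in those of *cyc8* and 196 ± 18.4 in the double mutant, the order seen in the list. The sum of the other Ty2 genes, mostly *YOR192C-B* as described above, had the order *cyc8*, *tup1*, double mutant, wt from low to high. By the limit used between mutants, all 5 other Ty1 genes with counts were lower in *cyc8* than in *tup1* (5% of all genes tested). All 5 were also higher in the double mutant than in *cyc8* (3.09% of all genes). These contrasts use the same *cyc8* libraries in 1 fit, which favours such an overlap, so it is no second result.

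*YLR256W-A*, a *TYA* gene with no *TYB* gene around it, gave 266, 270 and 266 CPM in the wt libraries, 145, 133 and 132 in those of *tup1*, 29.5, 27.7 and 24.5 in those of *cyc8* and 118, 146 and 135 in the double mutant. It fell by 3.29 on the log2 scale in *cyc8* (SE 0.12, adjusted p = 1.9e-06), and its changes of -0.985 (adjusted p = 0.00011) and -0.996 (adjusted p = 0.00016) in *tup1* and the double mutant lay just inside the 2-fold limit. *YHR214C-B* fell by 2.05, 3.99 and 2.46 (*tup1*, *cyc8* and *tup1 cyc8*, adjusted p = 3.6e-06, 3.4e-06 and 3e-06). The Ty2 gene *YOR192C-B* fell by 1.64 in *tup1* (adjusted p = 7.8e-05) and by 3.40 in *cyc8* (adjusted p = 0.00029). In *YLR410W-B*, another Ty2 gene, *cyc8* passed with -1.84 (adjusted p = 0.00013) and *tup1* did not (-0.44, adjusted p = 0.061).

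Ty3 and Ty4, families less alike in sequence to Ty1, had no gene that was lower by both limits. The Ty3 genes *YIL082W-A* and *YGR109W-B* had changes between -0.78 and 0.17. The Ty4 genes summed to 8.2, 8.8 and 9.2 CPM in the wt libraries, 12.9, 14.9 and 15.4 in those of *tup1*, 8.1, 5.9 and 7.4 in those of *cyc8* and 16.1, 19.1 and 20.6 in the double mutant. Among them *YJL114W* (1.52, adjusted p = 0.001) and *YHL009W-B* (1.42, adjusted p = 0.0052) rose in *tup1 cyc8*, as 13.9% of all genes tested did by both limits. They rest on few counts, 16 to 17 and 12 to 20 in wt against 28 to 44 and 27 to 32 in *tup1 cyc8*. Without wt replicate 1, wt replicate 2 or *tup1 cyc8* replicate 3, only 1 Ty gene outside the list was called higher. The Ty4 gene *YJL113W* differed between *cyc8* and *tup1* by -1.02 on the log2 scale (adjusted p = 0.00094).

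Of 64 host genes known to act on Ty1, 35 in transcription, 10 in RNA turnover and 19 in integration and restriction, none passed both limits in any mutant in the edgeR fits of each mutant with wt under TMM scaling. Library-size scaling moved the median of all genes by -0.35 in *cyc8* and -0.47 in *tup1 cyc8*. With it, 2 host genes were lower in *cyc8* (367 of all 5954 genes tested) and 16 in *tup1 cyc8* (753 of 5942). At an unadjusted p under 0.05 and with TMM scaling, 17 were lower in *tup1* (17.6% of all genes tested were), 27 in *cyc8* (24.5%) and 37 in the double mutant (28.6%). In the other direction 1 was higher in *tup1* (19.7%), 4 in *cyc8* (27.5%) and 3 in the double mutant (29.8%). DESeq2 and the edgeR fit of all 4 strains each called 1 gene, *TEC1*, higher in *tup1 cyc8*. *STE12* had log2 changes of 0.04, -0.31 and -0.29 in the order *tup1*, *cyc8*, *tup1 cyc8* (adjusted p = 0.85, 0.053 and 0.076). *TEC1* had 0.57, 0.62 and 1.02 (adjusted p = 0.21, 0.15 and 0.020), with 36.4, 26.15 and 66.8 CPM in the wt libraries. Without wt replicate 3, 1 host gene passed both limits as higher in *tup1* and 1 in *tup1 cyc8*. *GCN4*, an activator of amino acid synthesis genes, had 0.29, 0.62 and 0.44 (adjusted p = 0.16, 0.029 and 0.0097). The SAGA subunit gene *SPT3* had 0.10, -0.22 and -0.42 (adjusted p = 0.47, 0.12 and 0.016). *XRN1*, the cytoplasmic 5′ exonuclease, had -0.19, -0.66 and -0.43 (adjusted p = 0.17, 0.032 and 0.0060). Whether any of these moved the Ty genes was not tested.

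Of 53 tested genes that flank the elements as nearest neighbours, few passed both limits. Lower were 1 in *tup1* (1.43% of all genes tested were), 2 in *cyc8* (1.91%) and 3 in the double mutant (1.88%). Higher were 3 in *tup1* (7.27%), 4 in *cyc8* (12.5%) and 3 in the double mutant (13.9%). Their median log2 changes were -0.06, -0.12 and -0.20.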

How the data were processed

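Per the study's methods, the authors trimmed reads with Trimmomatic 0.36, aligned them to S288C with STAR 2.5.2b and counted unique gene hits with featureCounts (Subread 1.5.2). The strand setting, annotation release and treatment of multiply mapped reads are not given in the sources used here. The deposited values used are whole-number counts per gene. The authors' normalized columns and comparisons were not used. Rows without a gene name held 0.0647% to 0.340% of counts and were left out.

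Counts were fitted with edgeR 4.0.16 (TMM, filterByExpr, quasi-likelihood test, Benjamini-Hochberg adjustment over all genes tested), each mutant with wt in 6 libraries and the mutants with each other in 12. The code was tested on simulated data. Coordinates, neighbours, words and windows came from the RefSeq R64 genome. Genes were described in full if among the 6 highest in wt or the 3 largest increases or decreases per mutant with a mean of at least 10 counts. The members, gene lists and tests were chosen with earlier results of these data known. Same-numbered libraries of *tup1* and *tup1 cyc8* deviated together from their strain means (r = 0.17 to 0.34), and only in this comparison were all 3 above 0.1. Between *cyc8* and *tup1 cyc8* the same-numbered values were weaker (r = 0.03 to 0.09). They too all lay above those of unlike numbers (-0.09 to -0.003), so pairing may bear on that comparison as well. The alternatives were DESeq2 1.42.0, other scalings and filters, replicate blocks and leaving out libraries.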

Additional observations from a re-analysis of the deposited data

Results flagged for a closer look

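In 3 listed genes mutants departed from wt in opposite directions and differed by the direct test between them (edgeR over 12 libraries, whose mutants also served to choose the genes). *YDR210W-B* was above wt in *tup1* and *tup1 cyc8* and below it in *cyc8*, with log2 differences of -1.73 between *cyc8* and *tup1* (adjusted p = 1.8e-05) and 1.69 between *tup1 cyc8* and *cyc8* (adjusted p = 3.1e-05). *YDR261W-B* was above wt in *tup1 cyc8* and below it in both single mutants, with differences of 1.18 against *cyc8* (adjusted p = 0.00063) and 2.41 against *tup1* (adjusted p = 1.7e-06). Its excess over wt in *tup1 cyc8* was 0.43 on the log2 scale (SE 0.16), the libraries overlapped those of wt, and with library-size scaling the value was -0.05. *YAR010C*, at 2.02 to 2.499 CPM in wt, showed the same directions, with 2.70 against *cyc8* (adjusted p = 7.9e-05) and 1.17 against *tup1* (adjusted p = 0.0042). Its excess over wt in *tup1 cyc8* was 0.20 on the log2 scale (SE 0.20), within its error.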

How the results depend on the processing

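Single copies are limited by shared sequence and, below about 10 CPM, by counts. No alternative run reversed the direction of a called value. With library-size scaling, which moved the median of all genes by -0.12, -0.35 and -0.47 in *tup1*, *cyc8* and *tup1 cyc8*, 0 listed genes were higher than wt in *tup1* and 0 in *tup1 cyc8*. Against *tup1*, *tup1 cyc8* was then lower in 5 listed genes and higher in 1 (1431 and 300 of all 5995 genes tested). Of the other Ty genes 8 were lower and 1 higher in *tup1 cyc8* (753 and 556 of all 5942 genes tested). Of the host genes 2 were lower in *cyc8* (367 of all 5954) and 16 in *tup1 cyc8* (753 of all 5942). The ratio of summed CPM to wt was then 0.274, 0.0739 and 0.220, against 0.302, 0.0942 and 0.303 with TMM.

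Without the 3 genes highest in wt the ratios were 0.389, 0.134 and 0.418. Ratios chosen after seeing the data were 0.0963 in *cyc8* and 0.327 in *tup1 cyc8* over all Ty1 and Ty2 genes, and 0.287 in *tup1 cyc8* over the 19 genes with at least 100 unique 100-base words. The planned sum over genes with 10% unique 31-base words gave no value, since those genes had no counts.

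In fits of the pair's 6 libraries, 12 listed genes were lower in *cyc8* than in *tup1* (127 of all 5946 genes tested), or 10 with the replicate block (67 of 5946). With this block, added after seeing the data, *tup1 cyc8* was lower than *cyc8* in 0 listed genes and higher in 9 (2 and 60 of all 5951). With it, *tup1 cyc8* was higher than *tup1* in 3 (767 of all 5930). The block in the fits against wt and over 12 libraries changed no count by over 1.5 times. With a 2-fold limit *tup1 cyc8* was lower than *tup1* in 1 gene and higher in 2. DESeq2 and the fit of all 4 strains each called 1 host gene higher in *tup1 cyc8*.

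Leaving out 1 library gave 0 to 1 listed genes higher than wt in *tup1 cyc8*, where 734 to 868 of all genes were. It gave 13 to 21 lower in *cyc8* than in *tup1* (107 to 826 of all genes). The count higher in *tup1 cyc8* than in *tup1* was 2 to 5 (321 to 741 of all genes). Among other Ty genes 1 to 2 were then higher in *tup1 cyc8*. Of the host genes 0 to 1 were higher in *tup1*, lower in *cyc8* and higher in *tup1 cyc8*. The cause of these shifts was not tested.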
